A study of Mus musculus with 6 samples.

Results

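The proximal end of mouse chromosome 14 carries a dense run of predicted genes, most of them known only by Gm symbols. The genes described here were the protein-coding genes lying wholly between positions 3049285 and 6219292 of chromosome 14 on build GRCm38, a window of 3170008 bases. There were 67 such genes among the 42450 genes of the table, 64 with a Gm symbol and 3 with a Rik symbol. The window was selected on the fold changes between Srrm2+/- and WT that its genes showed in these same libraries, so the fold changes and calls of its genes are given as a description and support nothing by themselves. Total RNA libraries were made from the male mouse embryonic stem (ES) cell line E14tg2a.4, 3 from wild-type (WT) and 3 from Srrm2+/- cells. The Srrm2+/- cells were the gene-trap line CG0630, a derivative of E14tg2a.4 with a truncation in 1 allele of Srrm2, which encodes a serine/arginine-rich scaffold protein of nuclear speckles. They are 1 clone, and per the study's methods the WT cells had been frozen at higher passage numbers, so genotype, clone and passage cannot be told apart in any difference below. Both groups were grown with LIF and moved to serum-free medium before collection, and the replicates were vials frozen in separate batches.

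Genes of this region belong to the takusan family, named from the Japanese word for many, which expanded by repeated duplication in the mouse lineage. The proteins are short and resemble the N-terminal part of DLG5, a scaffold protein of the membrane-associated guanylate kinase class, and the SPEER proteins, glutamate-rich proteins first described in the testis. In neurons, some takusan proteins are known to bind the postsynaptic scaffold PSD-95 (encoded by Dlg4) and to affect synaptic activity, while no role in ES cells is well established. Most of the 67 genes have no assigned function of their own, so they are described here by their sequence, their level and their place in the window.

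Most of the 67 genes shared a coding design. The longest annotated coding sequences of the 67 were 381 to 810 bases long (median 648), and 62 of 67 began with ATG. The conceptual translations of 62 members matched DLG5 in a protein search at an E-value of at most 0.001, over 73 to 154 residues with 24.7% to 32.4% identity, and those of 49 members matched a SPEER protein, with 22.5% to 42.6% identity. Under the same limit, translated Dlg1 to Dlg4 were not matched by any of the 67. In 56 members a stretch of the coding sequence aligned without a gap to the first 90 coding bases of Gm2974, the most abundant member. In 13 of the other 55 this stretch was identical to that of Gm2974. It was not the member's own coding start in every case. In Gm10413 and Gm3012, for example, the annotated coding sequence did not itself begin with ATG. A few starts from several of the sequence groups described next are shown. Their differences follow those groups only in part. For example, C57A, C65A and G67A occur in both Gm5796 and Gm21560, which belong to different groups. Capitals mark the bases that differ from Gm2974, and positions are counted from the first coding base. All are on GRCm38, read 5′ to 3′ on the coding strand, and lie within the first coding exon. They come from chr14:4197288-4197377 (plus strand) for Gm2974, chr14:6093853-6093942 (minus) for Gm8206, chr14:4033759-4033848 (plus) for Gm5796, chr14:5131582-5131671 (plus) for Gm8279, chr14:3224367-3224456 (plus) for D830030K20Rik, chr14:6219121-6219210 (minus) for Gm21560 and chr14:5945823-5945912 (minus) for Gm3248.
Gm2974: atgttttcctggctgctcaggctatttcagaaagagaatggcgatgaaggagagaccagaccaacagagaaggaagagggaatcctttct
Gm8206: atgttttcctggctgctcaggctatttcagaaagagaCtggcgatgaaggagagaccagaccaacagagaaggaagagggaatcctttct
Gm5796: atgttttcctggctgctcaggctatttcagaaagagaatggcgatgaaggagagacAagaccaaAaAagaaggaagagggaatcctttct
Gm8279: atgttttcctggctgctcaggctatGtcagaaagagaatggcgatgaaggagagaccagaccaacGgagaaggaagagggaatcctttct
D830030K20Rik: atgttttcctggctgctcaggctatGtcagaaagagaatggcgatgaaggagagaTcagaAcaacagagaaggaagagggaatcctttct
Gm21560: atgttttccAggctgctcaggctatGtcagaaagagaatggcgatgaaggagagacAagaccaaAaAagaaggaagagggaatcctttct
Gm3248: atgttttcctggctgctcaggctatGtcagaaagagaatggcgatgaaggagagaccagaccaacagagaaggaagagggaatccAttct

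Whole transcripts were compared by their 31-base words, on either strand, and members were joined into sequence groups where more than 50% of the words of the smaller gene occurred in the other. This gave 8 groups. Group 1 held 29 members, group 2 held 19, and the other 19 members fell into groups of 7, 6, 2 and 2 and 2 genes that stood alone (Gm2916 and Gm3248). Gm2916 shared no word with any other member, and its translation matched neither DLG5 nor a SPEER protein. Coding sequences were 97.7% identical in the median pair within group 1, 96.2% within group 2 and 91.4% between the groups. A substitution in the stretch aligned to the coding start of Gm2974 set group 1 apart from most members of the other groups. Among members with this stretch ungapped, T26G was absent from all 22 of group 1. It was present in 16 of 18 members of group 2 (the exceptions were Gm8246 and Gm3424) and in 16 of 16 members of the other groups.

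Start-site windows of 300 bases (250 before and 50 after an annotated start, RefSeq sequence of GRCm38.p6) were listed for 40 of the 67 members, 52 windows in all. The count of CG dinucleotides differed among the sequence groups. In the 27 windows of group 1 it ranged from 0 to 31 (median 8), and 11 windows held at least 10. In the 12 windows of group 2 it ranged from 0 to 2, and over all 32851 windows of the genome 43.5% held at least 10. The GC box GGGCGG, searched on both strands, was in 13 of 27 windows of group 1 and in none of the 12 of group 2, against 35.7% of all windows. Windows of 3 members are shown, with each CG in capitals, as a CG-rich start, a CG-poor start within the same group and a start of group 2. They are chr14:4182320-4182619 (plus strand, 27 CG) for Gm2974, chr14:4023691-4023990 (plus, 2 CG) for Gm5796 and chr14:5131332-5131631 (plus, 2 CG) for Gm8279.
Gm2974: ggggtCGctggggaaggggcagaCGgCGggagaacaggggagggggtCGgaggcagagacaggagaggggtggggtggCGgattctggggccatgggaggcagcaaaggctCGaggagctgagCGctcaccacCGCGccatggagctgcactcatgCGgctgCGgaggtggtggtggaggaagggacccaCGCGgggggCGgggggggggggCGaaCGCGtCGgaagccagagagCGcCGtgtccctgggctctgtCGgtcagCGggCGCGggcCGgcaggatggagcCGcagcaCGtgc
Gm5796: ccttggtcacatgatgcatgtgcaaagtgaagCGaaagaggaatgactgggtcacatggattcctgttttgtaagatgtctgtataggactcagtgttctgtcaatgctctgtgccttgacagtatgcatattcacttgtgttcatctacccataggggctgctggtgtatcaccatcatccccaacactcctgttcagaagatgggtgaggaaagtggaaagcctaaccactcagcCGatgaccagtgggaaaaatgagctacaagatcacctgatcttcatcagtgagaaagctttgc
Gm8279: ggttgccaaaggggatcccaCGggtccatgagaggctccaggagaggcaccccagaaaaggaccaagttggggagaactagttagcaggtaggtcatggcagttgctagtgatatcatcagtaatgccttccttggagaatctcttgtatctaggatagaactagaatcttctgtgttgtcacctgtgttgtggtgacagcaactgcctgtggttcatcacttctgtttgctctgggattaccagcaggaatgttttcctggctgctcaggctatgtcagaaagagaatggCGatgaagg

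The annotated start of Gm8279 lay so close to its coding sequence that the window ran into the ATG seen above. The first 20 coding bases of Gm2974 were found in 3 of the 12 windows of group 2, in 2 of the 27 of group 1, in 6 of the 13 of the other groups and in 14 of all 32851. The search was for an exact match, so starts that differ in those bases or are cut by the window were missed. The windows of Gm3127, Gm3159, Gm3182, Gm7876 and Gm5795, of group 2, also reached the coding start. For the members, the counts are therefore lower bounds on windows that reach a coding start. Where a window does so, a low CG count describes the annotated start, and whether transcription begins there was not tested.

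**Figure D1:**
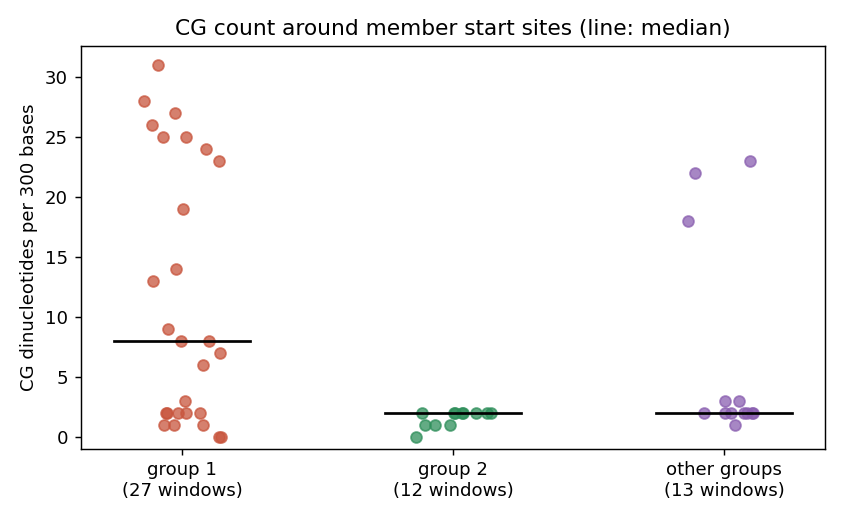
CG dinucleotides in each 300-base start-site window of the members, by sequence group; each point is a window and the line is the median. Group 1 spreads from 0 to 31, while the 12 windows of group 2 all hold 2 or fewer.

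Because the copies are so alike, few reads identify a single member. Of the 23599 distinct words of the 67 members, 50.7% occurred in at least 2 of them, and 55.2% occurred in annotated genes outside the 67. The share of a member's words found in no other annotated gene had a median of 4.76% and a highest value of 35.1% (Gm8237), it was under 5% in 34 members, and it was 0 in 13. Gm3194, for example, had no word of its own, and all its words occurred in Gm3383. The authors' counts are estimates that divide shared reads among the copies, so a single member's value depends on that division. The sum over the members depends on it less, but still rests on how reads shared with genes outside the members were divided. In 3 pairs (Gm10413 and Gm3012, Gm10409 and Gm3020, Gm3542 and Gm9603) the deposited values were equal within 0.01 counts in all 6 libraries, so each pair is 1 measurement, and counts of members below take both copies except where they are said to be counted a single time. In addition, 19 members overlapped another member on the same strand, among them Gm3383, whose model spans 200363 bases, and Gm3002, and counts of such genes cannot be fully told apart.

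**Figure D2:**
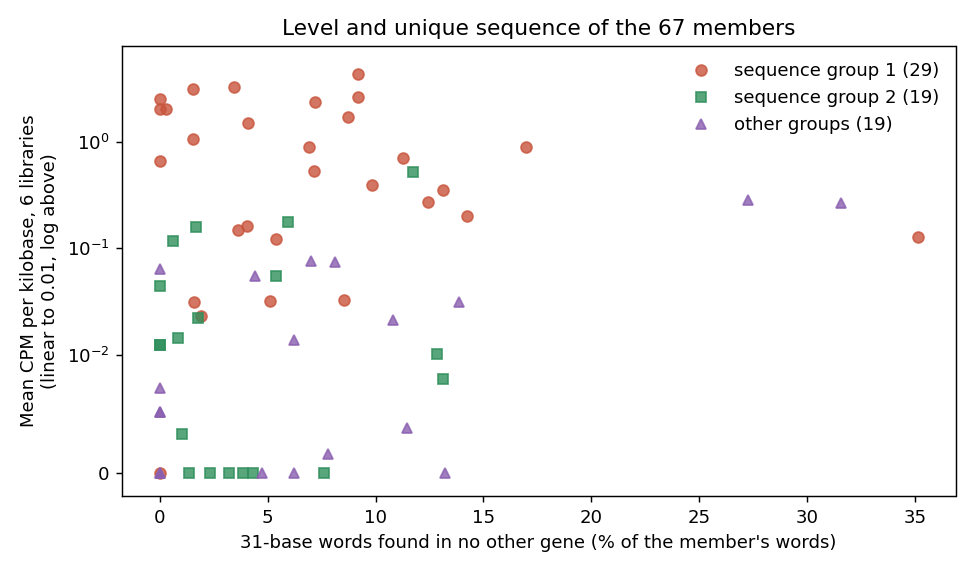
Mean level over the 6 libraries (CPM per kilobase of exon, linear to 0.01 and logarithmic above) against the share of a member's 31-base words found in no other gene, 1 point a member. The 12 highest levels all belong to group 1, and several of these members have no or almost no word of their own.

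Library totals lay between 54151532 and 69933465 estimated counts. Srrm2 was measured at 91.2, 98.3 and 97.7 normalised counts (CPM, scaled to the size of each library) in WT and at 62.3, 56.2 and 59.6 in Srrm2+/-, a log2 fold change of -0.69 (SE 0.05, edgeR quasi-likelihood adjusted p = 2.38e-05). Of all genes, 18905 passed the filter on low counts, and 4781 of them were called at an adjusted p under 0.05. The cells carried ES markers at high levels, with a summed CPM of the 6 markers of 3245 to 3356 in WT and 2574 to 2690 in Srrm2+/-, and 5 of the 6 were called lower, among them Nanog and Tfcp2l1. Of the 5 fibroblast markers 3 were called higher (summed CPM 3.36 to 3.63 against 6.47 to 9.85), and of the 6 markers of two-cell-like cells, a rare state of ES cultures, 2 of the 3 tested were called lower (5.79 to 7.56 against 3.81 to 4.64). Summed CPM in WT and Srrm2+/- were 1.44 to 1.90 and 1.39 to 1.73 for 4 primitive endoderm markers, 68.43 to 70.04 and 46.8 to 52.1 for 5 neuron markers (2 called higher and 1, Tubb3, called lower), and 155 to 163 and 141 to 147 for 5 male germ cell markers (2 called lower). The part of these shifts in the results below was not tested. In bulk RNA, more cells expressing a gene and more RNA per cell cannot be told apart.

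Summed over the 67 members, RNA of the region was higher in Srrm2+/- cells by a factor of 1.76. The sums were 48.8, 45.0 and 42.6 CPM in the WT libraries and 77.4, 83.5 and 78.5 CPM in the Srrm2+/- libraries. The groups did not overlap, and the gap between them was several times the spread within either (45.5 ± 3.14 against 79.8 ± 3.25 CPM, mean ± SD, n = 3 each). The log2 fold change of the sum was 0.81 (SE 0.06). It was 0.81 with identical pairs counted a single time, 0.78 without Gm2974, and 0.81 when all genes of any type in the window were summed. Restricting the sum to the 15 members with at least 10% of words of their own, a choice made after the data were seen, gave 4.04, 5.03 and 5.60 CPM in WT and 6.97, 8.09 and 7.88 CPM in Srrm2+/-, a log2 fold change of 0.64 (SE 0.13). These members hold a small part of the total, and their libraries also did not overlap between groups.

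**Figure D3:**
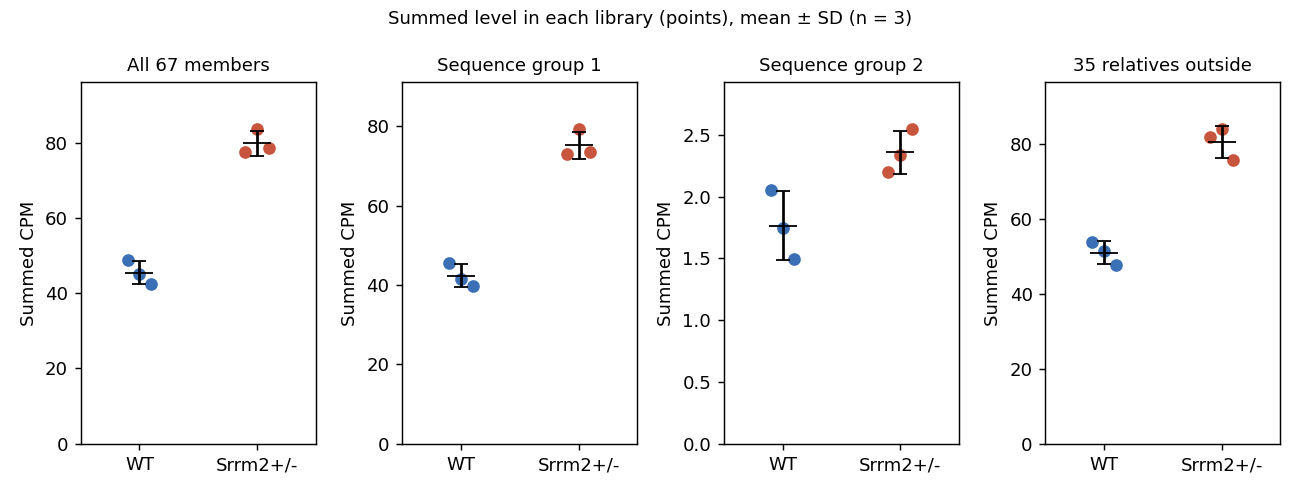
Summed CPM in each library (points) with mean ± SD (n = 3) for all members, the 2 largest sequence groups, and 35 related genes outside the window; every vertical axis starts at 0. The Srrm2+/- libraries sit above the WT libraries in all 4 panels.

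Nearly all of this RNA came from group 1. Its 29 members made up 92.5% to 94.9% of the summed counts in every library, and its sum was 45.6, 41.6 and 39.8 CPM in WT and 73.0, 79.2 and 73.5 CPM in Srrm2+/- (log2 fold change 0.83, SE 0.06). Group 2 summed to 2.05, 1.75 and 1.49 CPM in WT and 2.20, 2.33 and 2.54 CPM in Srrm2+/- (log2 fold change 0.42, SE 0.16). Its libraries did not overlap between the groups either, but the gap between the highest WT and the lowest Srrm2+/- library was small. The difference between the fold changes of the 2 sequence groups was not tested. Per length, group 1 had a median level of 0.658 CPM per kilobase of exon, against 0.0122 in group 2 and 0.00713 in the remaining groups, and the members at 0 in all 6 libraries numbered 1 of 29, 6 of 19 and 5 of 19.

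In all, 55 members had a rounded count in at least 1 library and 12 had none. Only 31 (30 with identical pairs counted a single time) passed the filter on low counts, and those 31 held 97.0% to 99.4% of the members' counts. A member that passed only through the group where it was high had to differ, so the following counts describe the 31 and say nothing of the other 36, of which 24 had a count and whose largest single count was 19. The log2 fold change was positive in 29 of 31 and negative in 2 (Gm8279 and Gm8159), with a median of 1.03 beside -0.003 over all 18905 tested genes. Of the 31, 11 were called higher (10 of 30 with identical pairs counted a single time), where 13.6% of all tested genes were, and 1 was called lower, where 11.7% were. The Srrm2+/- libraries all lay above the WT libraries in 21 of the 31, where this held for 21.4% of all tested genes, and all below in 1, where it held for 20.0%. At an adjusted p under 0.01, 7 members were called higher by edgeR, where 8.33% of all tested genes were, and none lower, where 6.37% were, with 1 lower at an unadjusted p under 0.05. These shares are given for reference only, since the window was selected on the same contrast.

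The 12 most abundant members by length all belonged to group 1. Gm2974 (chr14:4182576-4204895, plus strand) stood first, at 4.34 CPM per kilobase of exon over the 6 libraries, which was above 57.9% of tested protein-coding genes. In CPM, Gm2974 was at 7.12, 5.78 and 4.18 in WT and at 11.4, 11.6 and 11.8 in Srrm2+/-. Its Srrm2+/- libraries were close together and its WT libraries spread, without overlap, and the log2 fold change was 1.03 (SE 0.16).

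Gm3383 and Gm3373, both on the minus strand, followed at 3.32 and 3.12 CPM per kilobase. The model of Gm3373 lies inside that of Gm3383. Gm3383 was at 5.19, 4.03 and 4.31 CPM in WT and at 8.71, 8.87 and 8.48 CPM in Srrm2+/- (log2 fold change 0.95, SE 0.11). Gm3373 was at 4.90, 3.94 and 3.68 CPM in WT and at 7.99, 9.12 and 8.54 CPM in Srrm2+/- (log2 fold change 1.03, SE 0.12). Both were near a doubling without overlap between the groups. The SDs in WT and Srrm2+/- were 0.60 and 0.20 CPM for Gm3383 and 0.64 and 0.57 CPM for Gm3373. Gm3194, whose words all occur in Gm3383, was at 3.55, 2.51 and 3.49 CPM in WT and at 6.30, 6.64 and 6.52 CPM in Srrm2+/-, a log2 fold change of 1.03 (SE 0.14). The values of Gm3194 and Gm3383 are therefore not separate evidence.

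The next members were more variable. Gm3298, a short model of 700 exon bases, was at 0.883, 1.21 and 1.42 CPM in WT and at 1.84, 3.09 and 2.64 CPM in Srrm2+/- (log2 fold change 1.11, SE 0.24). Gm2897, the first gene of the window, was at 3.19, 4.19 and 2.95 CPM in WT and at 7.05, 6.76 and 4.29 CPM in Srrm2+/- (log2 fold change 0.81, SE 0.21). The lowest Srrm2+/- library of Gm2897 barely passed its highest WT library, and its call was lost without WT replicate 1 (0.76), WT replicate 3 (0.71), Srrm2+/- replicate 1 (0.68) or Srrm2+/- replicate 2 (0.72). The identical pair Gm10409 and Gm3020 was at 3.19, 3.06 and 2.11 CPM each in WT and at 4.65, 5.29 and 5.51 CPM in Srrm2+/- (log2 fold change 0.88, SE 0.17). Gm8108 was at 2.45, 2.56 and 1.96 CPM in WT and at 3.24, 4.29 and 3.31 CPM in Srrm2+/-, a log2 fold change of 0.64 (SE 0.17), and lost its call without WT replicate 3 (0.53) or Srrm2+/- replicate 2 (0.49).

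Abundant members of the same sequence group did not all share this difference. Gm8206 was at 4.20, 3.56 and 4.39 CPM in WT and at 5.04, 4.09 and 3.26 CPM in Srrm2+/-, with overlapping groups and a log2 fold change of 0.03 (SE 0.17). Gm5796 was at 1.71, 1.80 and 1.34 CPM in WT and at 1.69, 1.61 and 1.62 CPM in Srrm2+/- (log2 fold change 0.02, SE 0.17). Both sat close to 0, and their sign turned without single libraries, for Gm8206 without WT replicate 2 (-0.05) or Srrm2+/- replicate 1 (-0.14) and for Gm5796 without WT replicate 3 (-0.10) or Srrm2+/- replicate 1 (-0.0025). 2610042L04Rik was at 1.51, 1.47 and 1.70 CPM in WT and at 1.76, 1.87 and 1.77 CPM in Srrm2+/- (log2 fold change 0.21, SE 0.15), with little room between the groups. Gm3002 was at 2.16, 1.51 and 2.02 CPM in WT and at 2.85, 2.47 and 2.66 CPM in Srrm2+/- (log2 fold change 0.49, SE 0.17), apart but not called except under a filter of 1 CPM in every library of a group (0.50).

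Shares of the summed counts moved accordingly. Gm8206 held 8.60%, 7.90% and 10.3% of the members' counts in WT and 6.51%, 4.89% and 4.15% in Srrm2+/-. Gm5796 held 3.52%, 3.99% and 3.17% in WT and 2.18%, 1.93% and 2.06% in Srrm2+/-. Gm2974 held 14.6%, 12.8% and 9.84% in WT and 14.8%, 13.9% and 15.1% in Srrm2+/-, with overlap. The 12 members together kept 77.0% to 82.1% of the counts in the 6 libraries. Among these 12, the listed start windows held 27 and 25 CG for Gm2974, 25 for Gm3194, 19 for Gm2897 and 14 and 8 for Gm8108. They held 8, 0 and 7 CG for Gm3373, 2 each for Gm3383, 28 for 2610042L04Rik and 2 for Gm5796. The rest of the 12 had no window listed. Whether CG count goes with fold change was not tested.

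**Figure D4:**
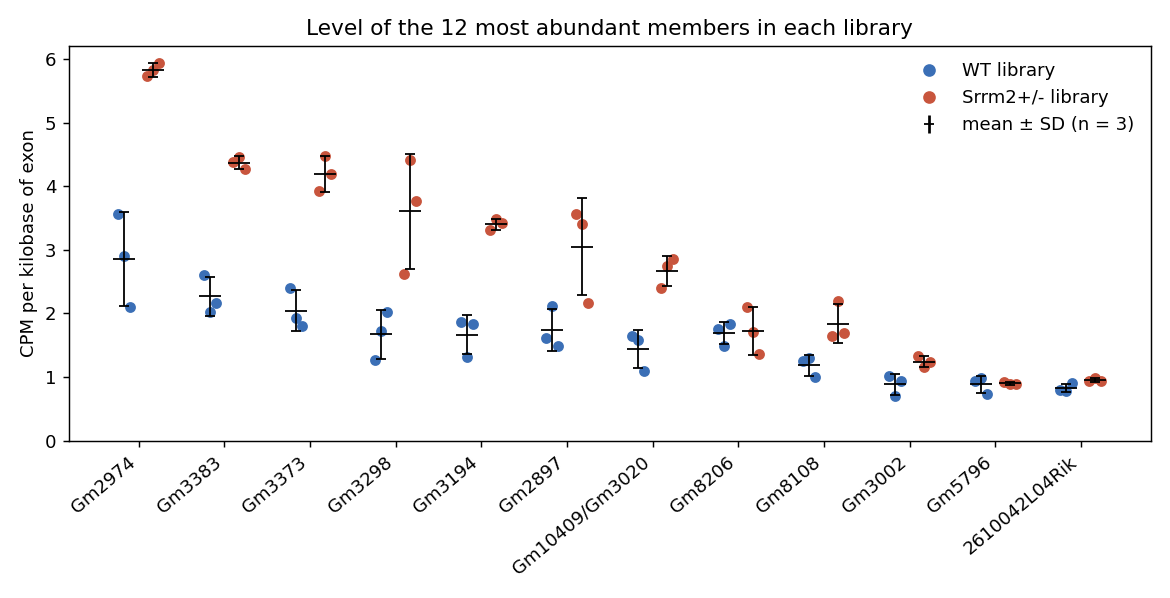
CPM per kilobase of exon of the 12 most abundant members (identical pair as 1) in each library, with mean ± SD (n = 3). The Srrm2+/- libraries lie above the WT libraries in 10 of the 12, and the groups overlap for Gm8206 and Gm5796.

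The largest fold changes belonged to members near the detection limit. Gm3095 had rounded counts of 0, 11 and 3 in WT and 36, 14 and 35 in Srrm2+/- (log2 fold change 2.34, SE 0.78). Gm3526 had 5, 10 and 0 in WT and 29, 21 and 18 in Srrm2+/- (1.90, SE 0.68), and Gm21560, the last gene of the window, had 7, 4 and 0 in WT and 18, 14 and 16 in Srrm2+/- (1.84, SE 0.68). These 3 were not called, although their libraries did not overlap between groups. In separate settings, Gm3095 was called without WT replicate 2 (3.87), by DESeq2 (2.38), and with every gene of at least 1 count tested (2.34). Gm3526 was called without WT replicate 2 (2.84) and, separately, by limma voom (2.60). Among the 18 tested members with a mean level under 1 CPM, SEs ran from 0.20 to 0.78, and 2 were called higher and 1 lower. Among the 13 above it, or 12 with the identical pair counted a single time, SEs were at most 0.24 and 9 (8) were called higher. Over all tested genes 13.6% were called higher and 11.7% lower, and nothing is read from these counts. The called members of the first set were Gm3488, Gm3453 and Gm8279, of which Gm3488 and Gm3453 were singled out after their values were seen. Gm3488 had 17, 28 and 29 counts in WT and 67, 80 and 67 in Srrm2+/- (log2 fold change 1.27, SE 0.25). Gm3453, of group 2, had 44, 40 and 34 in WT and 78, 87 and 65 in Srrm2+/- (0.70, SE 0.20).

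Gm8279, whose coding start and start window are printed above as examples of group 2, was the member that went the other way. It had rounded counts of 27, 11 and 22 in WT and 0, 7 and 5 in Srrm2+/-, with no overlap and a log2 fold change of -2.54 (SE 0.73). Only 0.606% of its words were its own, and 92.9% of them occurred in Gm3187, which was at 0 in every library. Its call was lost without WT replicate 1 (-2.27), WT replicate 3 (-2.44), Srrm2+/- replicate 1 (-1.96), Srrm2+/- replicate 2 (-3.15) or Srrm2+/- replicate 3 (-2.78), and with the replicate number as a block (-2.53). Of the 6 settings that leave out a library it held in the remaining one, without WT replicate 2, and it held under the other normalisations, DESeq2, limma voom and the filter of 1 count. Gm8159, also of group 2, had 18, 19 and 14 counts in WT and 20, 8 and 25 in Srrm2+/- (log2 fold change -0.18, SE 0.45), with overlapping groups, and turned positive without Srrm2+/- replicate 2 (0.18). There was no member with 0 counts throughout 1 group and a count in every library of the other.

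Higher values in Srrm2+/- were spread over the whole window and both strands. The first 46 members in order all lay on the plus strand, and of the remaining 21 there were 18 on the minus strand. The 10 tested members of the minus strand had a median log2 fold change of 1.03 and the 21 of the plus strand one of 0.88. Among the 60 other genes in the window that the table held, mainly processed pseudogenes, 10 were tested. Of these 10, 9 had a positive log2 fold change, with a median of 0.77, where 9388 of all 18905 tested genes had a positive one. Some pseudogenes of the window, such as Gm3339 and Gm3344, had all their words in members. Values of such genes are not independent of the members.

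The window ended inside the family rather than at its border. Outside it, 35 protein-coding genes had more than 50% of their words in members, all on chromosome 14. Of these, Gm2888 lay before the window and was at 0 in every library, 31 followed the window up to position 7643972, and 3 (Gm2244, Gm2237 and Gm5458) lay farther along, between 19532896 and 19602581. On the proximal side no tested protein-coding gene remained. Just past the last member, Gm3411 had 250, 319 and 304 counts in WT and 657, 643 and 536 in Srrm2+/- (log2 fold change 0.81, SE 0.11), and Gm3591 had 581, 443 and 491 in WT and 989, 1045 and 746 in Srrm2+/- (0.61, SE 0.12). Both were apart between groups, with higher values in Srrm2+/-. Just inside the edge, Gm21560 and Gm6337 had low counts and were not called. Gm3476 was at 0 in every library, Gm3468 was not tested, and the groups of Gm8206 overlapped (log2 fold change 0.03).

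The 35 relatives summed to 53.8, 51.5 and 47.7 CPM in WT and to 81.9, 83.9 and 75.9 CPM in Srrm2+/- (log2 fold change 0.66, SE 0.06), an amount of RNA similar to that assigned to the members. Of the 14 relatives tested, 12 had a positive log2 fold change (median 0.63) and 7 were called higher, beside the 13.6% of all tested genes. Reads shared between members and relatives were divided between them, so these values are not independent of the members. The 2 sets summed together had a log2 fold change of 0.73 (SE 0.05). Over the 508 tested protein-coding genes of chromosome 14 outside the window, relatives included, the median was 0.02, with 103 called higher and 67 lower.

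**Figure D5:**
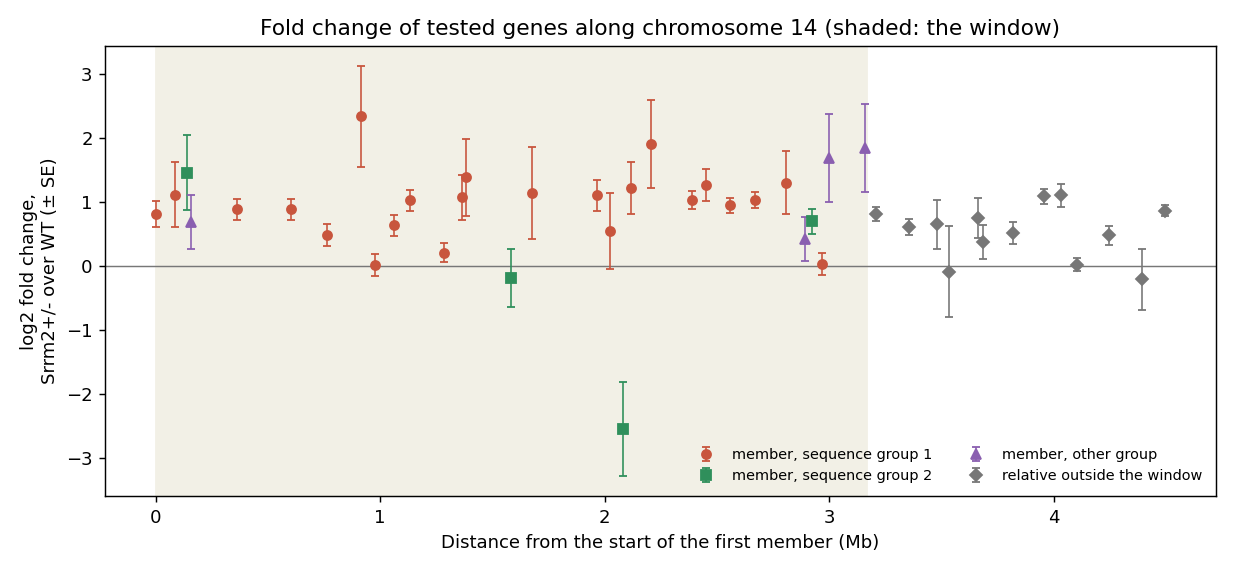
Log2 fold change (Srrm2+/- over WT, ± SE) of the tested members and of tested relatives on the distal side, by distance from the start of the first member; the shaded band is the window and the horizontal line is 0. Positive values continue past the end of the window, and Gm8279 is the lowest point.

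The better known genes with related sequence come last. Of the 5 Dlg genes 4 were tested, with log2 fold changes of 0.12 to 0.26. Of these, 2 were called higher, where 13.6% of all tested genes were. Dlg5, the only Dlg gene that the translated members matched, was at 10.27, 10.95 and 11.61 CPM in WT and at 14.02, 12.41 and 12.87 CPM in Srrm2+/-, a log2 fold change of 0.26 (SE 0.08, edgeR quasi-likelihood adjusted p = 0.0355). Its groups did not overlap. Dlg4, which encodes the takusan partner PSD-95, had a log2 fold change of 0.20 (SE 0.25) with overlapping groups. None of the 10 Speer genes passed the filter on low counts, and 6 of them were at 0 in all 6 libraries, so no difference was detectable for them at this depth.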

How the data were processed

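Total RNA from 3 WT and 3 Srrm2+/- cultures was sequenced as stranded, paired-end libraries. The authors pseudo-aligned reads with kallisto 0.46.1 to GENCODE M24 transcripts (GRCm38), and the values they deposited are estimated counts for each gene, without normalisation. The strand setting was not given in the sources used here. Counts were rounded. The annotation used here was GENCODE M21 (GRCm38), which matched 42156 of 42450 identifiers, so gene models may differ from those the authors used. Library totals were 54151532 to 69933465.

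Genes past filterByExpr (minimum count 10, total 15) were fitted with edgeR 4.0.16 (R 4.3.3, TMM, glmQLFit and glmQLFTest, genotype as the single term, two-sided) and adjusted by Benjamini-Hochberg over all 18905 genes. Calls were made below an adjusted p of 0.05. CPM used TMM-scaled library sizes. The SE was the log2 fold change divided by the square root of F. Sums replaced the members by 1 row. The script was tested on simulated data. Members, lists and windows were chosen with earlier results of these data known. Named members were the 12 with the highest mean count per kilobase, the 3 largest and 3 smallest fold changes, and members with no count in 1 group only; exceptions are stated. P-values measure the spread between these libraries of 1 line and 1 clone.

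Coding sequences were the longest annotated per gene, aligned with MAFFT and translated for blastp (BLAST+ 2.17.0). Start windows were RefSeq sequence of GRCm38.p6. Alternatives were other normalisations, DESeq2 1.42.0, limma 3.58.1 voom, other filters and thresholds, a replicate block, leaving out each library and other sums.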

Additional observations from a re-analysis of the deposited data

How the results depend on the processing

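The log2 fold change of the summed members lay between 0.77 and 0.87 when each library was left out in turn, and between 0.78 and 0.82 under the other alternatives of fit or member set, against 0.81 as reported. Sums chosen after the data were seen gave 0.73 for members and relatives together, 0.66 for the relatives outside the window and 0.64 for members with at least 10% of words of their own. The median over tested members lay between 0.92 and 1.04 with a library left out (0.93 to 1.07 with identical pairs counted a single time). Under the filter of 1 CPM in every library of a group, which tested 14 members, it was lower, at 0.85 (0.82 with identical pairs counted a single time). Over the 6 rows of summed sequence groups it was 0.76. The count of members called higher ranged from 8 to 13 with a library left out, beside 1956 to 2257 of all tested genes, and was 7 at an adjusted p under 0.01 and 1 of 6 rows when members of a sequence group were summed. The count called lower was 0 to 1 with a library left out, beside 8.01% to 9.54% of all tested genes. It was 0 under the filter of 1 CPM in every library of a group (beside 15.9%) and at an adjusted p under 0.01 (beside 6.37%). With members of a sequence group summed it was also 0. By construction, the stricter filter and the sums no longer test Gm8279 alone. Over all genes 3515 to 4122 were called with a library left out and 2779 at an adjusted p under 0.01. Srrm2 kept its call and direction throughout, from -0.72 to -0.65 with a library left out. With the replicate number as a block, 12 members were called higher and 0 lower (12.1% and 9.97% of all tested genes), and the log2 fold change of the sum was 0.81. Same-numbered libraries did not deviate together (a correlation of -0.03 for each number), and nothing ties the numbers across genotypes, so they were not treated as pairs.

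Among 17 named members under up to 13 alternatives, 193 of 216 values kept their direction and side of the threshold. Direction turned for Gm5796 without WT replicate 3 (-0.10) or Srrm2+/- replicate 1 (-0.0025, range -0.10 to 0.10), for Gm8206 without WT replicate 2 (-0.05) or Srrm2+/- replicate 1 (-0.14, range -0.14 to 0.17), and for Gm8159 without Srrm2+/- replicate 2 (0.18, range -0.58 to 0.18), each over the libraries left out. The cause of these turns was not tested. SEs were 0.20 to 0.78 for the 18 tested members under 1 CPM and at most 0.24 for the other 13, and for the 36 members that were not tested a difference was not detectable at this depth.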
